A study of Mus musculus with 2 samples.

Results

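USF1 binding far from gene starts was examined in CH12.LX cells. This cell line grew out of a B-cell lymphoma of a mouse, and its strain is given as B10.H-2aH-4bp/Wts. The far peaks are the USF1 peaks whose summit lay over 100 kb from the 5′ end of every protein-coding transcript of the Gencode vM1 annotation, whatever sequence lay under them. The rule used position alone, and 993 of 10624 peaks of the mm9 list met it (9.35%). Of the other peaks, 4305 lay 10 to 100 kb from such a 5′ end, 2244 lay 1 to 10 kb away and 3082 lay within 1 kb. The study consists of 1 group of 2 biological replicates of chromatin precipitated with a USF1 antibody; no treatment or other genotype was compared, and whether the line is a single clone is not stated in the sources used here. The mm9 list pools both replicates, so the spread between them was read from separate mm10 lists. Sequencing depth is unknown. RNA was not measured here, so the B-cell identity of the line was not checked against marker genes.

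USF1 is a basic helix-loop-helix leucine zipper protein that binds DNA as a dimer. Its preferred site is the canonical E-box, the palindrome CACGTG, which it shares with USF2 and with other proteins of its family such as MYC, MAX and TFE3. USF1 is best known at promoters, where it is found close to the start of housekeeping and metabolic genes. Sequence far from any gene start includes introns of very long genes and gene deserts, the wide stretches without protein-coding genes that often surround developmental regulators and can hold distant enhancers.

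The sequences printed here show the E-boxes found at far summits and the bases around them. They are reference sequence of the NCBIM37 (mm9) assembly, written 5′ to 3′ on the strand given, with the E-box core in capitals and 25 bases on each side. The first set holds the 8 strongest far peaks with CACGTG, by falling signal.
Cldn23, chr8:36771111-36771166, plus strand: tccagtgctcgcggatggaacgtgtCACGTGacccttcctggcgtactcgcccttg
Zfp217, chr2:170078320-170078375, plus strand: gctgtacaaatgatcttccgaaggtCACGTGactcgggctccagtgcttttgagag
Rngtt, chr4:33674278-33674333, plus strand: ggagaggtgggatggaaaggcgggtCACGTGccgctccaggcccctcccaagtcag
2610018G03Rik, chrX:47988539-47988594, plus strand: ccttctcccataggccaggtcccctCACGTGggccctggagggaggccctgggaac
Man1a, chr10:53645507-53645562, plus strand: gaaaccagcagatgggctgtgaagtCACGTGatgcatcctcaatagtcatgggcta
Gm239, chr10:116183892-116183947, plus strand: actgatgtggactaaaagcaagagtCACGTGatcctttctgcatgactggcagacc
Irg1, chr14:103205946-103206001, plus strand: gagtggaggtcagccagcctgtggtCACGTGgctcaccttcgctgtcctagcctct
Grip1, chr10:119049220-119049275, plus strand: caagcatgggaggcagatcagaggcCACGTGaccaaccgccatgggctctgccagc

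The second set holds the 6 strongest far peaks without CACGTG but with CACATG, which differs from it at 1 base. The Fbxo11 and Sp3 sequences hold the core more than once within this short stretch.
B3gnt2, chr11:22610880-22610935, plus strand: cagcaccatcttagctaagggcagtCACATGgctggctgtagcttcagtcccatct
Mrpl39, chr16:84583790-84583845, minus strand: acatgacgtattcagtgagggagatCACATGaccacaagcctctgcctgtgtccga
Fbxo11, chr17:88594800-88594855, minus strand: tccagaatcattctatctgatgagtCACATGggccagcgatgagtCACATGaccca
Sp3, chr2:72617994-72618049, plus strand: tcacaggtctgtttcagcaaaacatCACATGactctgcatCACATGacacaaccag
1700001O22Rik, chr2:30555447-30555502, minus strand: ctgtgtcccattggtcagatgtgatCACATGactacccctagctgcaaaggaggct
Nfib, chr4:81967112-81967167, plus strand: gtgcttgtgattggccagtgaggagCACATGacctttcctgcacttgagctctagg

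The third set holds far peaks with neither core, at which CACCTG lay near the summit. These 4 lines come from different chromosomes and are shown because their windows matched each other in a sequence search.
2610301B20Rik, chr4:10367255-10367310, plus strand: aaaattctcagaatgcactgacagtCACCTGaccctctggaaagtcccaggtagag
Gnai1, chr5:17969411-17969466, plus strand: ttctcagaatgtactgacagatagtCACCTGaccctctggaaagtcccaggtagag
Gm17697, chr16:9176679-9176734, minus strand: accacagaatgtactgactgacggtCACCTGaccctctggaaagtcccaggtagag
Gm7536, chr3:23463400-23463455, plus strand: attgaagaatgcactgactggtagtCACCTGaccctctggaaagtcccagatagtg

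Far peaks were thinly spread. Sequence over 100 kb from a protein-coding 5′ end made up 37.7% of the called bases of the assembly and held 9.35% of the peaks. That is 10.3 peaks per 10 Mb, against 37.8 per 10 Mb at 10 to 100 kb and 523 per 10 Mb within 1 kb. These densities pool chromosomes that differed widely. Far sequence held 18.8 far peaks per 10 Mb on chromosome 11 and 1.61 on chromosome X. Peaks at any distance numbered 99.9 and 8.08 per 10 Mb on these 2 chromosomes. The median distance of a far peak to the nearest 5′ end was 164 kb, with quartiles of 127 and 249 kb. A distance of 100 to 200 kb was found for 636 of the 993 far peaks (64.0%), 200 to 500 kb for 319 and over 500 kb for 38. At the edge of the rule, the 3 peaks just inside lay 100043, 100310 and 100312 bp from the 5′ ends of Tacc1, Lrrc28 and Fam82a1 and had signals of 47.0, 57.7 and 37.4. The 3 peaks just outside lay 99935, 99887 and 99852 bp from Tbx20, Fam108c and Cbr4 and had signals of 58.2, 30.3 and 41.2. Signal is the authors' own value of each peak, on a scale that the sources used here do not give.

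The E-box classes of far peaks had shares close to those of peaks 10 to 100 kb away. Within 50 bp of the summit, read on both strands, 515 far peaks held CACGTG (51.9%, 95% Wilson interval 48.8 to 55.0, as for all intervals of single shares here, which cover counting error only), 388 held CACATG without CACGTG (39.1%, 36.1 to 42.1) and 90 held neither (9.06%, 7.43 to 11). At 10 to 100 kb the shares were 51.9%, 37.7% and 10.5%. None of these differences passed the threshold of an adjusted p of 0.05 (Fisher's exact test, two-sided, Benjamini-Hochberg over 10 comparisons of shares; adjusted p = 1, 0.449 and 0.287). For CACGTG the difference of far minus 10 to 100 kb was -0.0069 percentage points, with an interval of -3.45 to 3.43.

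Set against promoters, far peaks more often held CACATG and less often lacked both cores. The CACATG class made up 39.1% of far peaks and 12.4% of peaks within 1 kb (adjusted p = 2.21e-68, Fisher's exact test). The class with neither core made up 9.06% of far peaks and 30.9% of peaks within 1 kb (Fisher's exact test, adjusted p = 1.69e-48). CACGTG was held by 51.9% of far peaks and 56.7% of peaks within 1 kb. The difference was -4.85 percentage points (Fisher's exact test, adjusted p = 0.0164). It did not pass the threshold when the 5′ ends of all transcripts were used (Fisher's exact test, adjusted p = 0.337). Nor did it pass without the strongest 1% of peaks (Fisher's exact test, adjusted p = 0.111). Under the other alternatives tried for it, the difference kept its sign and passed. Among peaks at or above the list's median signal it was -19.3 percentage points (Fisher's exact test, adjusted p = 3.77e-12). With 1 peak kept per 100 kb it was -8.33 (Fisher's exact test, adjusted p = 0.000201). Peaks are not replicate samples, so these tests measure counting error among peaks and not the spread between cultures.

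**Figure D1:**
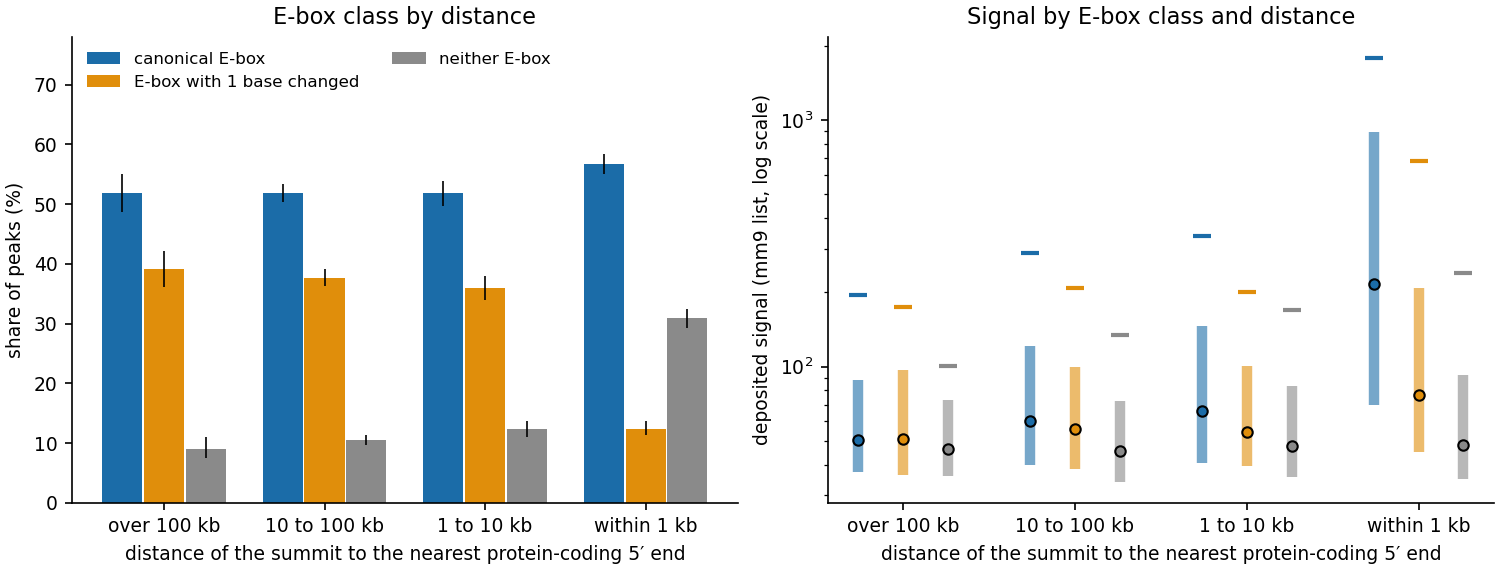
The left panel plots the share of peaks (%) in each E-box class by distance of the summit to the nearest protein-coding 5′ end, with 95% Wilson intervals; the canonical E-box is CACGTG and the E-box with 1 base changed is CACATG without CACGTG. The right panel plots the deposited mm9 signal on a log scale, with the median as a circle, the quartiles as a bar and the 90th percentile as a dash. The bars of far peaks and of peaks 10 to 100 kb away are of similar height (51.9% with CACGTG in each), and the median signal of CACGTG peaks is 50.5 for far peaks and 216 within 1 kb.

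The E-box was centred on the summit. CACGTG was found at 515 of the 993 far summits, against 6 windows placed 500 bp upstream of them (0.604%); 512 far peaks had it at the summit alone and 3 upstream alone (exact McNemar test, p = 4.24e-148). Windows 500 bp downstream gave 5 (0.504%). CACATG was held by 467 far summits (47.0%), counting those that also held CACGTG, and by 83 upstream windows (8.36%, exact McNemar test, p = 1.45e-82). The copy nearest the summit lay a median of 9.5 bp away for CACGTG and 10.5 bp away for the CACATG class, and within 25 bp at 91.8% and 87.4% of their peaks.

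The bases on either side of the core were also restricted. Of the 515 far CACGTG peaks, 180 had the form TCACGTGA (35.0%) and 154 had CCACGTGA (29.9%), counting each form together with its reverse complement. Among 188 CACGTG copies that lay 250 to 1000 bp from far summits the same forms made up 5.85% and 13.3% (Fisher's exact test, adjusted p = 5.14e-16 and 7.53e-06 over 10 forms). GCACGTGC went the other way, with 1 of 515 at far summits (0.194%) and 17 of 188 away from them (9.04%, Fisher's exact test, adjusted p = 7.26e-09). Of the 388 far CACATG peaks, 205 had TCACATGA (52.8%) and 73 had TCACATGG (18.8%), where 5.57% and 4.76% of 1472 copies away from summits did (Fisher's exact test, adjusted p = 4.18e-94 and 4.23e-16 over 16 forms). On the strand printed, T precedes the core in 7 of the 8 sequences of the first set (C in Grip1) and in 5 of the 6 of the second (G in Nfib). CACGTG reads the same on both strands, so the count for the first set depends on the strand chosen for printing. These comparisons of flanking bases were chosen after seeing the data.

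The palindrome TCACGTGA was more frequent among far CACGTG peaks than in either of the classes it was tested against. It made up 35.0% of far CACGTG peaks (31.0 to 39.2), 28.4% of those at 10 to 100 kb (26.6 to 30.3) and 18.5% of those within 1 kb (16.8 to 20.4). The difference passed the threshold against both (Fisher's exact test, adjusted p = 0.00955 and 4.28e-13 over 10 comparisons of forms). Against 10 to 100 kb it did not pass with far set at over 200 kb (Fisher's exact test, adjusted p = 0.266) or with 1 peak kept per 100 kb (adjusted p = 0.166). TCACATGA made up 52.8% of far CACATG peaks and 35.2% of those within 1 kb (Fisher's exact test, adjusted p = 5.52e-06). Against the 47.9% at 10 to 100 kb the difference did not pass (Fisher's exact test, adjusted p = 0.15).

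Most E-boxes in far sequence had no peak. The assembly holds 74289 copies of CACGTG over 100 kb from a protein-coding 5′ end, and 549 of them lay within 50 bp of a peak summit (0.739%, 0.680 to 0.803). The share was 1.81% of 130293 copies at 10 to 100 kb and 19.3% of 9760 copies within 1 kb. For CACATG it was 0.0698% of 872715 far copies, 0.202% at 10 to 100 kb and 1.31% within 1 kb. The shares differed widely with the flanking bases. In far sequence 190 of 4075 TCACGTGA copies lay under a summit (4.66%), 1.13% of CCACGTGA copies, 0.505% of TCACATGA copies and 0.0315% of GCACGTGC copies (1 of 3175). Within 1 kb of a protein-coding 5′ end, 54.2% of 668 TCACGTGA copies lay under a summit. The distance classes differ in more than distance, base composition included: the median GC content within 250 bp of the summit was 45.7% for far peaks, 47.9% at 10 to 100 kb and 60.7% within 1 kb, and its part in these shares was not tested.

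Beyond the E-box cores, the far summits were compared with their own upstream windows over all hexamers, each merged with its reverse complement. By exact McNemar tests with Benjamini-Hochberg adjustment, 102 hexamers were more frequent at the summits (4.9%) and 171 were less frequent (8.22%). The 8 hexamers with the highest ratios share bases with the canonical E-box. Of these, CGTGAC was held by 33.9% of summits and 1.01% of upstream windows, and ACGTGA by 42.7% and 1.71%. GTGACC, which joins the last 3 bases of the core to ACC, was held by 29.8% of summits and 4.23% of upstream windows. CGGAAG, the core of sites of ETS proteins, was held by 30 summits (3.02%) and 3 upstream windows (exact McNemar test, adjusted p = 4.42e-05). The hexamers with the lowest ratios were AT-rich, such as TAATTA with 0.705% of summits and 4.23% of upstream windows.

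Sites of other transcription factors were searched as 22 fixed strings on both strands. Against their own upstream windows, 9 of the 22 were more frequent at far summits and none was less frequent (exact McNemar test, adjusted over the 22). By the same exact test, besides 4 E-boxes (both cores, and the forms with CC or GC in the middle) these were the AP-1 site TGANTCA (9.77% of far summits and 4.63% of upstream windows, adjusted p = 5.93e-05), the octamer ATGCAAAT bound by POU proteins (2.01% and 0.403%, adjusted p = 0.00566), the NF-kB string GGGANTTCC (1.41% and 0.201%, adjusted p = 0.0131), the PU.1 string GAGGAAGT (2.32% and 0.705%, adjusted p = 0.0136) and the NF-Y site CCAAT (18.1% and 13.6%, adjusted p = 0.0136). The E-boxes were not masked in this search, so a string can share bases with them. In the Fbxo11 sequence printed above, TGANTCA ends in the first bases of CACATG. How much of the AP-1 difference comes from such overlap was not tested. Against summits 10 to 100 kb from a 5′ end, 0 of the 22 strings differed (0% called, Fisher's exact test with Benjamini-Hochberg adjustment), and 1 had an unadjusted p under 0.05. That was the octamer, at 20 of 993 far summits (2.01%) and 47 of 4305 summits at 10 to 100 kb (1.09%, Fisher's exact test, unadjusted p = 0.0263, adjusted p = 0.42). GC-rich promoter strings were rare at far summits: the SP/KLF site GGGCGGG lay in 1.01% of them, 1.79% of summits at 10 to 100 kb and 20.8% of summits within 1 kb.

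Of the 90 far peaks with neither CACGTG nor CACATG, 64 held an E-box with CC or GC in the middle. The form CACCTG was in 49 of the 90 (54.4%) and in 3 of their upstream windows, and it led the hexamers of this class (exact McNemar test, adjusted p = 4.71e-09 over all hexamers). The hexamers ACCTGA (45 of the 90 and 5 upstream windows, adjusted p = 2.03e-08, exact McNemar test) and CCTGAC (41.1% and 5.56%, adjusted p = 0.000129), which extend it, also passed, so 3 of all hexamers were more frequent (0.144%). CAGCTG was in 18 of the 90 and in 3 upstream windows, which did not pass (exact McNemar test, adjusted p = 0.0824).

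Far peaks had lower signal than other peaks. Their median signal was 50.5 (quartiles 36.6 and 88.0), against 56.4 at 10 to 100 kb (38.4 and 106), 58.8 at 1 to 10 kb and 98.4 within 1 kb. A signal above the median of the whole list was found for 388 far peaks (39.1%) and for 44.8% of peaks at 10 to 100 kb (difference -5.73 percentage points, interval -9.07 to -2.33; Fisher's exact test, adjusted p = 0.00272). Without chromosomes 3, 11 and 16, a choice made after seeing the data, these shares were 40.1% and 44.5% (Fisher's exact test, adjusted p = 0.0518). Within 1 kb the share was 62.8% (Fisher's exact test against the far peaks, adjusted p = 1.22e-38). Very strong far peaks were few: 19 of 993 exceeded a signal of 500 (1.91%), against 3.25% at 10 to 100 kb and 22.9% within 1 kb.

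Among the strongest peaks CACGTG made up a smaller share over 100 kb away than at 10 to 100 kb or within 1 kb. At or above the list's median signal, these shares were 51.0%, 55.7% and 70.3%. The difference of far peaks did not pass against 10 to 100 kb (Fisher's exact test, adjusted p = 0.187). Against peaks within 1 kb it passed (Fisher's exact test, adjusted p = 3.77e-12). Differences in the bins and ranks that follow were not tested. When far peaks were ranked by signal into 5 equal bins, CACGTG made up 46.2% of the weakest bin (39.4 to 53.2) and 51.3% of the strongest (44.4 to 58.1). The CACATG class made up 42.7% of the weakest bin and 44.7% of the strongest. At 10 to 100 kb CACGTG made up 46.0% of the weakest bin and 60.4% of the strongest, and within 1 kb 27.2% and 88.2%. Of the 10 strongest far peaks 3 held CACGTG and 6 CACATG alone, and of the 100 strongest 59 and 38. Of the 50 strongest far peaks, 25 held CACGTG, 24 held CACATG alone and 1 held neither, whereas 42 of the 50 strongest at 10 to 100 kb and 49 of the 50 strongest within 1 kb held CACGTG. Within far peaks, a signal above the list's median was found for 38.4% of CACGTG peaks and 41.8% of CACATG peaks, a difference of -3.31 percentage points with an interval of -9.75 to 3.12 (Fisher's exact test, adjusted p = 0.421). Far CACATG peaks with more than 1 copy of the core in the window had higher signal: 40 of 73 lay above the median (54.8%), against 122 of 315 with a single copy (38.7%, Fisher's exact test, unadjusted p = 0.0173). With 1 peak kept per 100 kb that difference did not pass (Fisher's exact test, unadjusted p = 0.19). The comparison by copies was not among the planned tests.

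**Figure D2:**
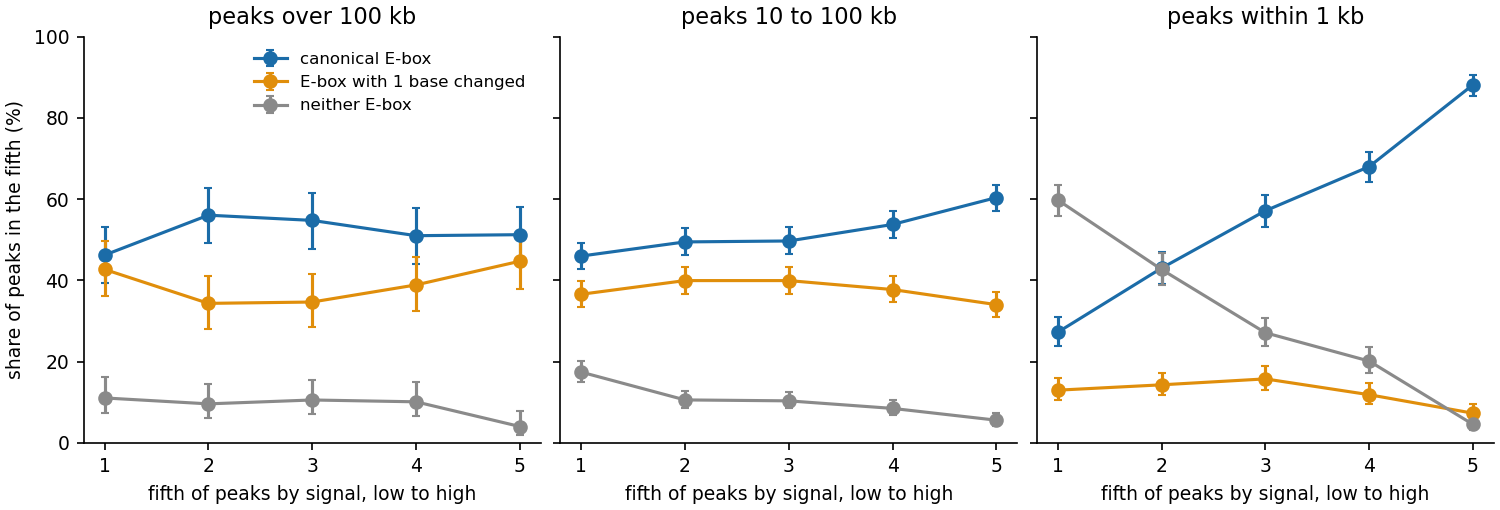
Share of peaks (%) in each E-box class over 5 equal bins of signal, from the weakest (1) to the strongest (5), for peaks over 100 kb, 10 to 100 kb and within 1 kb of a protein-coding 5′ end, with 95% Wilson intervals. The CACGTG line of far peaks stands at 46.2% in the weakest and 51.3% in the strongest bin, and the strongest bins hold 60.4% at 10 to 100 kb and 88.2% within 1 kb.

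The strongest far peak had a signal of 1992 and lay between genes on chromosome 11, 149 kb downstream of the 5′ end of B3gnt2, which encodes a glycosyltransferase of the poly-N-acetyllactosamine pathway. It held CACATG, as did the peaks 152 kb from Mrpl39 (signal 1291), a protein of the mitochondrial ribosome, 130 kb upstream of Fbxo11 (1285), an F-box protein, 199 kb from Sp3 (1264), a zinc-finger transcription factor, 102 kb from 1700001O22Rik (1191), and in an intron of Nfib (1055), a transcription factor of the nuclear factor I family. The strongest far peaks with CACGTG lay 118 kb from Cldn23 (signal 1617), a claudin of tight junctions, 110 kb upstream of Zfp217 (1562), a zinc-finger protein, and 277 kb from Rngtt (1360), the mRNA capping enzyme. Further strong CACGTG peaks lay 206 kb from 2610018G03Rik (signal 946), in an intron of Man1a (938), a Golgi mannosidase, 150 kb from Gm239 (923), 240 kb upstream of Irg1 (825), which makes itaconate in macrophages, and in an intron of Grip1 (623), a scaffold protein of synapses. The peak at Irg1 lay 654 bp from the 5′ end of an annotated 5S_rRNA gene. The strongest far peak with neither core had a signal of 1126 and lay 108 kb upstream of Arhgap24, a GTPase-activating protein. Its sequence around the summit, chr5:102802866-102802916 on the plus strand, holds CATATG, another E-box of the CANNTG kind.
Arhgap24: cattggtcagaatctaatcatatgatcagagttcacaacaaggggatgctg
The other strong peaks of that class were far weaker, with 206 near Usp46, a deubiquitinase, 189 near Agpat9, 163 near Lmo4, 158 near Sipa1l2 and 154 near Rnls. CATATG was present in 6 of the 90.

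The spread between replicates was read from the mm10 lists, whose coordinates were not matched to mm9. With the same distance rule applied to RefSeq protein-coding genes of GRCm38.p6, 10.4% of the 8107 strongest regions of replicate 1 and 9.78% of the 8107 strongest of replicate 2 were far, a mean of 10.1% ± 0.436 (SD, n = 2). Of the 8107 regions in the authors' optimal list, 812 were far, and 810 of these overlapped a region of each replicate (99.8%, 99.1 to 99.9), as did 99.3% of the regions that were not far. The optimal list was thresholded for reproducibility between these replicates, so nearly complete overlap follows from how it was made. The median signal of the 810 was 27.6 in replicate 1 and 31.8 in replicate 2, and Spearman's coefficient between the replicates was 0.766 across the 810 far regions, 0.817 across 3186 regions at 10 to 100 kb and 0.951 across 2529 within 1 kb. Regions of 1 list share libraries and depth, and these coefficients describe agreement only. The signals of the 2 replicates differed by over 2-fold from their usual ratio at 59 of the 810 far regions (7.28%), against 7.06% at 10 to 100 kb, 4.59% within 1 kb and 6.23% of all 8053 regions.

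Far mm10 regions nearest to genes of the 10 strongest mm9 far peaks were looked up in both replicates. Those found lay above the far medians of 27.6 in replicate 1 and 31.8 in replicate 2. They come from a list thresholded for reproducibility, so this was not a test of agreement. The region near Zfp217 had signals of 281 in replicate 1 and 260 in replicate 2. The region near Rngtt had 246 and 267, that near Mrpl39 233 and 250, that near B3gnt2 228 and 249, and that in Nfib 211 and 237, with replicate 1 given first. Near Sp3 the signals were 213 in replicate 1 and 230 in replicate 2, and near Arhgap24 they were 176 in replicate 1 and 245 in replicate 2. Near 1700001O22Rik they were 198 in replicate 1 and 246 in replicate 2. Regions in the 2 builds were matched by nearest gene only. Of the 10 genes nearest to the 10 strongest mm9 far peaks, 8 were also nearest to a far region of the optimal list. Cldn23 and Fbxo11 were not. The same held for 14 of the 20 genes nearest to the 20 strongest mm9 far peaks. It held for 344 of the 656 gene names nearest to any far peak (52.4%). Names were compared as spelled in the 2 annotations, so a gene listed under another name in mm10 counted as absent. For example, the far peak 150 kb from Gm239 in mm9 has a counterpart in mm10 150 kb from Myrfl by name. These counts therefore mix differences of naming with differences of regions.

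**Figure D3:**
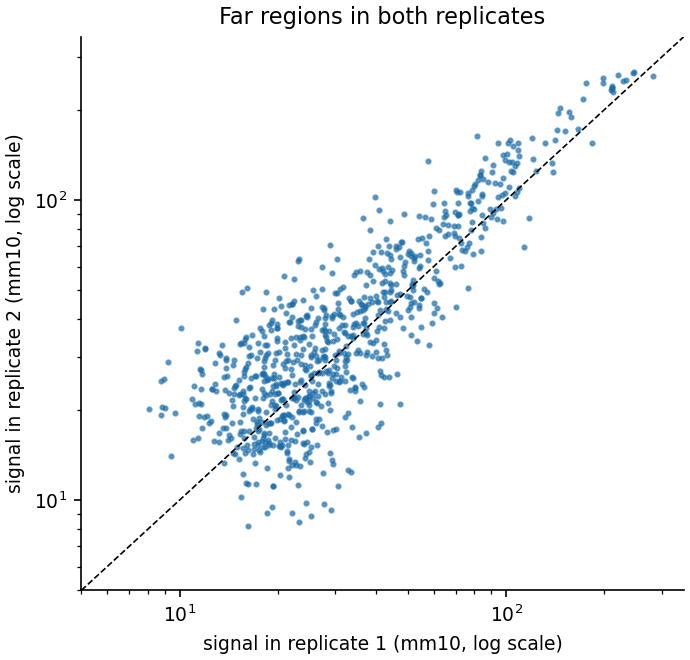
Signal of each of the 810 far mm10 optimal regions found in both replicates, replicate 1 on the horizontal and replicate 2 on the vertical log axis; the dashed line marks equal signal. Points with strong signal lie close together near the line, the weaker ones scatter more widely (Spearman's coefficient 0.766).

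Most far peaks lay between genes. A place between protein-coding genes was found for 710 far peaks (71.5%, 68.6 to 74.2) and 52.1% of peaks at 10 to 100 kb; 270 lay in introns (27.2%), 8 in untranslated exons and 5 in coding exons. The rule limits where a far peak can lie, so these shares were not tested. The gap between the flanking genes was 500 kb or longer for 377 far peaks (38.0% of all far peaks) and over 1 Mb for 146. Such gene deserts number 651 in the annotation, and 189 of them (29.0%) held at least 1 far peak. The intervals of the E-box shares overlapped between places: CACGTG was held by 47.7% of far peaks inside genes (42.0 to 53.5), 55.3% in shorter gaps (49.9 to 60.5) and 52.0% in deserts (47.0 to 57.0). Median signals were 49.6 inside genes, 52.2 in shorter gaps and 49.2 in deserts.

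**Figure D4:**
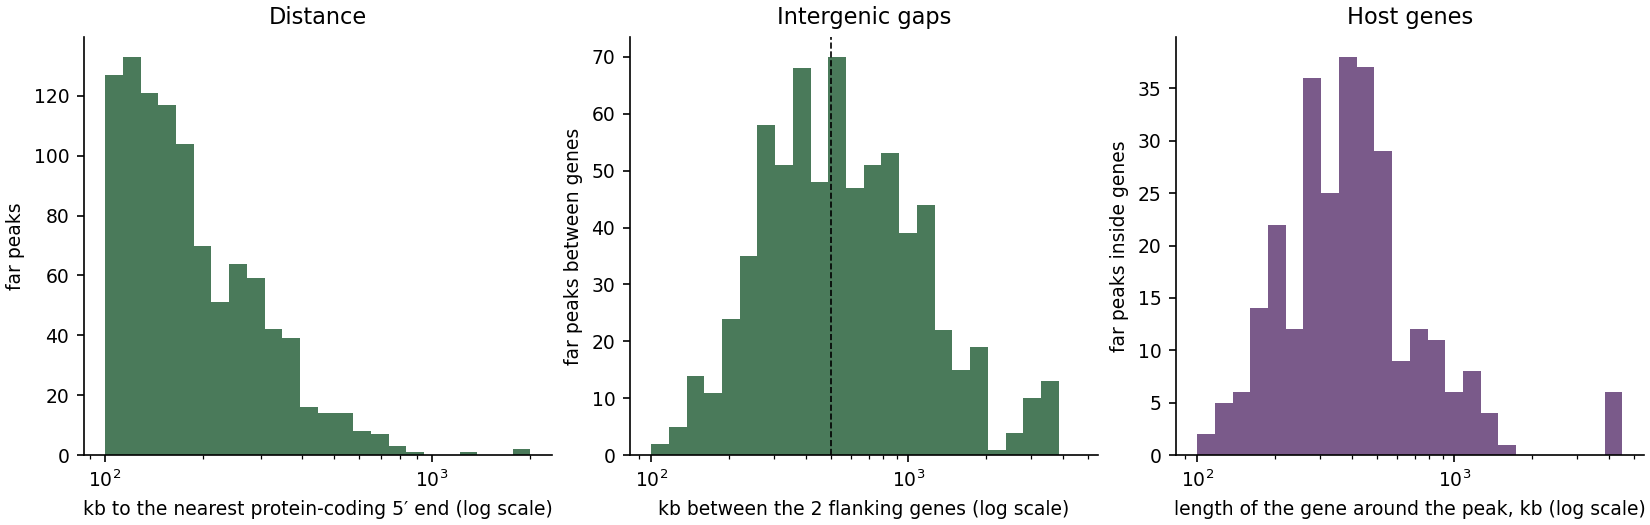
Histograms on log axes of the distance of the 993 far peaks to the nearest protein-coding 5′ end in kb, of the length of the gap between flanking genes for the 710 far peaks between genes (dashed line at 500 kb, the desert limit), and of the length of the host gene for the 283 far peaks inside genes. Distances crowd at the 100 kb limit (median 164 kb), gaps are spread around a median of 516 kb, and host genes around 404 kb.

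Far peaks inside genes lay in long genes, as the rule requires. The 283 intragenic far peaks lay in 194 genes with a median length, over peaks, of 404 kb. Most of all lay in St6galnac3, a sialyltransferase gene of 520 kb, and in Atxn1, the ataxin-1 gene of 410 kb, with 7 far peaks each. In St6galnac3 the signals ran from 34.8 to 366 with a median of 61.7, and 4 of the 7 held CACATG alone. In Atxn1 they ran from 31.0 to 112 with a median of 77.2, and 4 of the 7 held CACGTG. Hivep3, a zinc-finger gene, had 5 (29.5 to 407) and Slit3, a secreted axon guidance ligand, had 5 (56.0 to 119). All 5 in Slit3 held CACGTG, whereas 4 of the 5 in Hivep3 held CACATG alone. Alk, a receptor tyrosine kinase, Skap1, an adaptor of lymphocyte signalling, and Snx29, a sorting nexin, had 4 each. Another 6 fell in Gm20388, a predicted gene whose annotated span of 4435 kb covers many other genes, with signals of 30.5 to 508.

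Nearest genes repeated as well. The 993 far peaks had 657 nearest protein-coding genes, of which 448 had a single far peak and 36 had 4 or more. A peak within 1 kb of a 5′ end of the gene itself was found for 119 of the 657 (18.1%), and for 14.2% of all 22378 protein-coding genes. Rybp, a subunit of Polycomb complexes, had 7, with signals of 35.6 to 107; 6 of them lay downstream of its 5′ end, in the direction of transcription, at 104 to 270 kb. Lmo4, a LIM-only transcriptional cofactor, had 6 with signals of 39.5 to 477, the strongest at 124 kb with CACGTG. Genes with 5 included Foxn3, a forkhead factor (median signal 160), Jmjd1c, a JmjC-domain protein (83.8), Wdfy3, an autophagy adaptor (74.1; all 5 with CACGTG), Zfp36l1, an RNA-binding protein (47.5), and Tbl1xr1, a corepressor subunit (55.9). Atp11b, a phospholipid flippase, Zfp703, Hs6st1, a heparan sulfotransferase, and Gm17697 also had 5, with median signals of 47.9, 40.1, 42.9 and 66.0. Among genes with 4 were Runx2, a transcription factor of bone (median signal 73.9), Icos, a T-cell costimulatory receptor (47.3), Btg1, an antiproliferative factor of lymphocytes (47.3; 3 of the 4 with neither core), and Egln3, an oxygen-sensing hydroxylase (102). The others with 4 were Mrpl39, Fbxo11, Klf12, Ebf1, St6galnac3, Hivep3 and Id2, which are described elsewhere here, and St6galnac5, Matn1, Zfp608, Gm10287, Map3k1, Zfp326, Pank3, Gmpr, Gm10293, Xylt1 and Trib2, whose median signals ran from 41.6 at Trib2 to 88.1 at Matn1.

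Myc had 6 far peaks. Upstream, peaks lay 514 kb away with a signal of 30.3, 444 kb away with 280 and 162 kb away with 44.9. Downstream, measured from the first 5′ end of Myc, they lay at 121 kb with 88.9, at 205 kb with 35.7 and at 497 kb with 82.6. The strongest, at 444 kb upstream, held CACATG, and 4 further peaks lay between 47 and 94 kb downstream, within the 100 kb limit. No peak lay within 1 kb of a Myc 5′ end.

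The farthest peaks of all lay next to Zeb2, which encodes a zinc-finger repressor and sits beside a gap of 3697 kb. Its 5 far peaks lay 362, 663, 1326, 1807 and 1816 kb upstream, with signals of 50.8, 61.1, 72.1, 117 and 88.1. The next farthest were 927 kb from Pdha2 (signal 41.5, CACGTG) and 769 kb from Gm7536 (41.8, CACCTG).

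**Figure D5:**
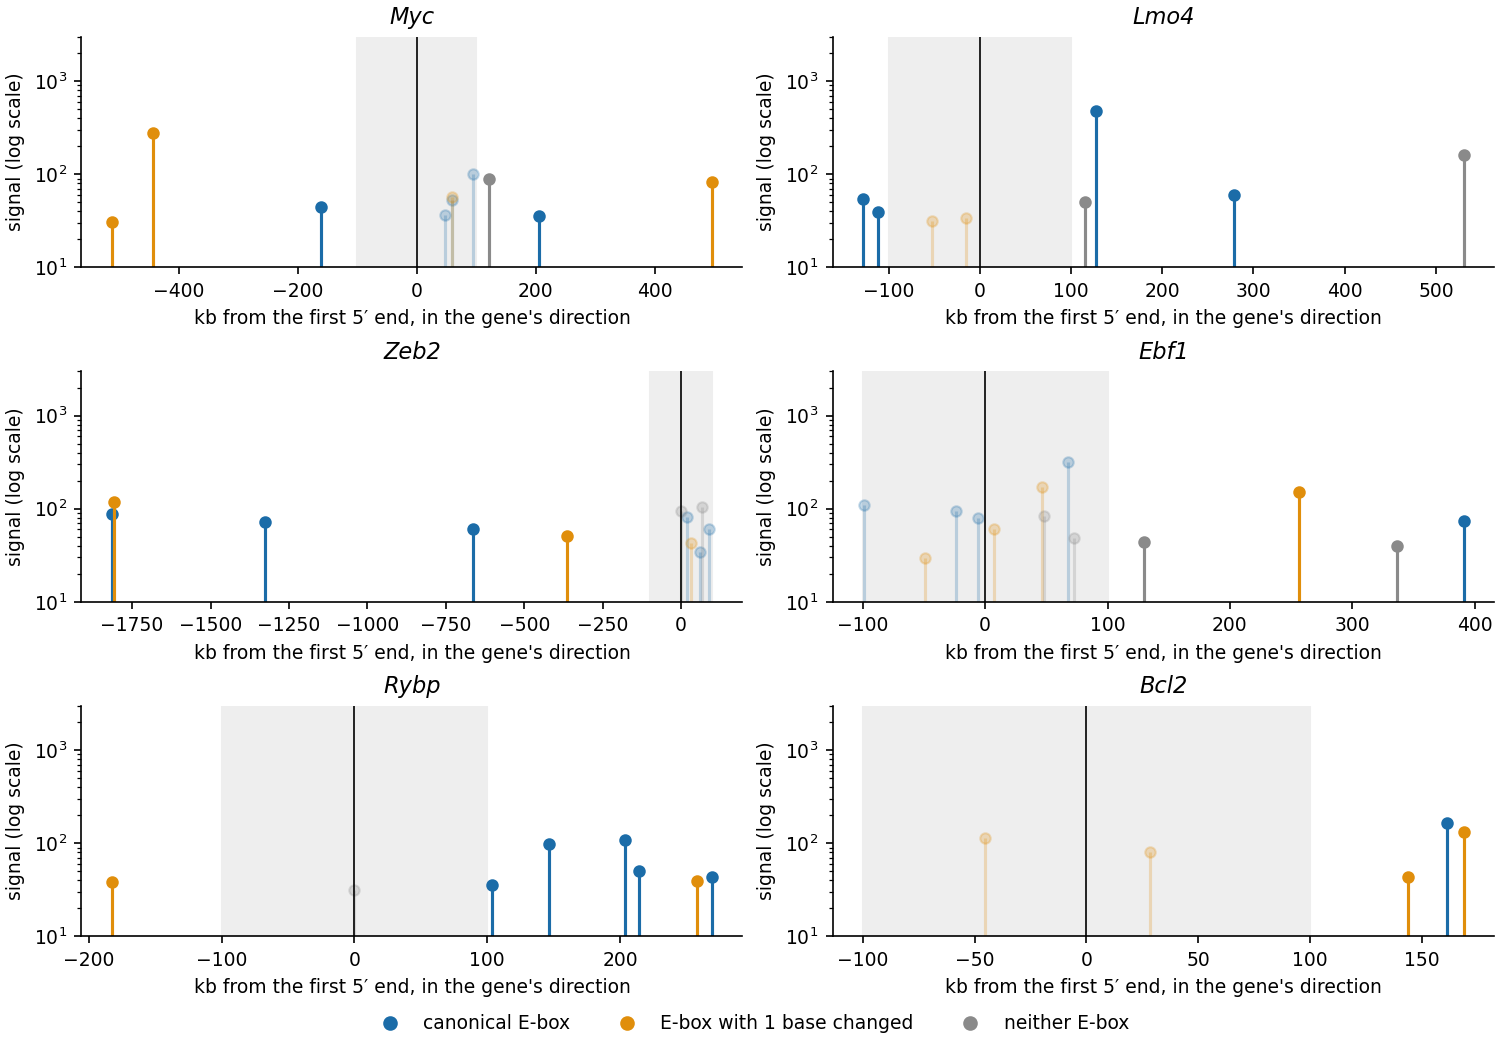
Far peaks (solid) and peaks within 100 kb (pale, grey band) at 6 genes with several far peaks, by distance in kb from the first 5′ end in the direction of the gene and by mm9 signal on a log scale; blue marks CACGTG, orange CACATG alone and grey neither. Zeb2 has all 5 far peaks upstream, Bcl2 all 3 downstream, and Myc 3 on each side.

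Genes of 5 lists were then looked up among the nearest genes and hosts. The lists were chosen with earlier results of these data known, so their shares are descriptions and were not tested. For every list the share also cannot be told apart from how much far sequence its genes have around them. Of 28 transcription factors of B cells, 8 were nearest to a far peak (28.6%, against 2.95% of all protein-coding gene names): Ebf1 to 4, Zeb2 to 5, Pax5 to 2, and Bcl11a, Bcl6, Mef2c, Prdm1 and Runx1 to 1 each. At Ebf1, a factor that specifies early B cells, far peaks lay at 130, 257 and 337 kb in its own introns and 391 kb downstream, with signals of 43.8, 152, 39.3 and 73.1. Those of Pax5, which maintains B-cell identity, had signals of 38.8 and 105. Peaks nearest to this list made up 1.61% of far peaks, 1.21% of peaks at 10 to 100 kb and 0.389% of peaks within 1 kb.

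Of 39 annotated B-cell surface and signalling genes, 8 were nearest to a far peak (20.5%, against 2.95% of all gene names). Bcl2, the apoptosis inhibitor, held 3 in its own 176 kb span at 144, 161 and 169 kb, with signals of 43.1, 166 and 131. Cd83, a surface protein of activated B cells, had 3 with signals of 33.4 to 74.1, Prkcb, a protein kinase C of B-cell receptor signalling, had 1 with 321, and Arhgap24 had the strong peak described above. Cxcr4, S1pr1, Bank1 and Sykb had signals between 29.1 and 110. The list made up 1.51% of far peaks, 1.07% at 10 to 100 kb and 0.292% within 1 kb.

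Developmental transcription factors were the list nearest to the most far peaks, 37 peaks (3.73%), against 0.65% of peaks at 10 to 100 kb and 0.227% within 1 kb. Of its 66 genes, 18 were nearest to a far peak (27.3%), as were 2.95% of all protein-coding gene names. Lmo4 had 6, Id2, an inhibitor of helix-loop-helix proteins, had 4 (signals 41.1 to 84.1), Gata3, a T-cell factor, had 3 (39.9 to 74.5) and Klf6 had 3 (54.2 to 190). Foxp1 had 2, of 43.1 and 408, Sox4 had 2, the stronger of 162, and Tcf7l2 had 2, of 96.9 and 119. Nfib had 1, the intronic peak of 1055 described above and the strongest of this list. The other 10, Ebf3, Etv1, Klf4, Meis1, Pax3, Sall3, Sox5, Tshz1, Zbtb20 and Zfhx3, had signals of 31.2 to 126, and Zfhx4 hosted 1 of 33.5. Genes in deserts have more sequence over 100 kb away than other genes, so for each of the 5 lists the share cannot be told apart from the room each gene has. Of 58 annotated neuronal adhesion and synapse genes, 7 were nearest to a far peak (12.1%, against 2.95% of all gene names). They were nearest to 8 far peaks (0.806%, with 0.279% at 10 to 100 kb and 0.0324% within 1 kb). As hosts, Cdh4, a cadherin, held 3 of 131 to 261, Gpc6, a glypican, 1 of 270, and Slit3 the 5 described above. Far peaks at Cntn4, Epha5, Grid1, Negr1 and Pcdh7 had signals of 29.3 to 59.8.

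Of 47 lysosome and autophagy genes, known promoter targets of related E-box factors, 1 was nearest to a far peak, Atg7 (2.13%, near the 2.95% of all gene names). Atg7 held 2 in its span, with signals of 63.2 and 340, and Uvrag held 1 of 56.5. This list made up 0.101% of far peaks, 0.163% at 10 to 100 kb and 1.2% within 1 kb.

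Few far peaks lay at starts of other transcripts. Within 1 kb of a 5′ end of a gene not annotated as protein-coding lay 16 far peaks (1.61%, 0.994 to 2.60). The share was 2.65% of peaks at 10 to 100 kb, a difference that did not pass (Fisher's exact test, adjusted p = 0.113). Of the 16, 9 were at lincRNAs or processed transcripts, 1 at a V and 1 at a D gene segment of antigen receptors. The strongest was a CACGTG peak with a signal of 946, 66 bp from the 5′ end of the lincRNA 6720401G13Rik on chromosome X. Gm11412 had a peak of 146, Gm16899 of 110, Gm14636 of 91.4 and Gm12069 of 76.9. In the immunoglobulin loci, 1 far peak lay in the kappa locus, with CACATG and a signal of 34.2, 978 bp from Igkv19-93. CpG-rich windows, with GC content over 50% and a CpG ratio over 0.6 within 250 bp of the summit, were found at 5 far peaks (0.504%) and at 2.0% of peaks at 10 to 100 kb (Fisher's exact test, unadjusted p = 0.000366) and 70.0% within 1 kb. These 5 had a median signal of 172, against 50.4 for the other 988 far peaks, and were nearest to Klf12, Atp5j, Foxn3, Pcmtd1 and Klf4.

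About 1 in 10 far peaks shared its sequence with another peak. Windows reaching 150 bp to each side of the summit were aligned to each other with BLAST, and a match was counted when the alignment ran across both summits at an E value of 1e-05 or less. A match at another peak was found for 102 far peaks (10.3%, 8.53 to 12.3), 9.11% at 10 to 100 kb and 1.98% within 1 kb. The difference passed against peaks within 1 kb (Fisher's exact test, unadjusted p = 3.86e-26) and did not against 10 to 100 kb (p = 0.251). Linked matches formed 103 sequence families, and 10 of them had 3 or more far peaks, 70 in all. No repeat annotation was used, so the families have no names here.

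The family with the most far members had 91 peaks, of which 21 were far and 0 lay within 1 kb. CACGTG was held by 17 of the 21 far members and their median signal was 44.5, but the family also holds the strong CACATG peak near Sp3 (1264). A family of 18 peaks, 4 of them far, holds the strongest far peak, near B3gnt2; 15 of its 18 peaks held CACATG and its median signal was 117. Its far members near B3gnt2, Gm17697, Zeb2 and 1700017G19Rik had signals of 1992, 236, 117 and 92.6. All 4 are printed to show how far they resemble each other.
B3gnt2, chr11:22610880-22610935, plus strand: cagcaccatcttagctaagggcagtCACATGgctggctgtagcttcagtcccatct
Gm17697, chr16:9253292-9253347, minus strand: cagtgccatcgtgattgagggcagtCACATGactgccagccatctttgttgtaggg
Zeb2, chr2:46779874-46779929, plus strand: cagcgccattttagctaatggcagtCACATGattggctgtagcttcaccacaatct
1700017G19Rik, chr3:39876014-39876069, plus strand: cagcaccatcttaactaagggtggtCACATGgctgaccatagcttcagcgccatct
A family of 24 peaks held neither core at 21 of them. Its 6 far members, 4 of which are printed in the third set, held neither core, 5 of the 6 held CACCTG, and their signals ran from 29.3 to 78.2. A sequence match at another peak was found for 14 of the 90 far peaks without CACGTG or CACATG (15.6%), against 9.9% of far CACGTG peaks and 9.54% of far CACATG peaks (14 of 90 against all other far peaks, Fisher's exact test, unadjusted p = 0.0991).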

How the data were processed

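The authors deposited narrowPeak lists of USF1 ChIP-seq in CH12.LX cells, 1 in mm9 and the others in mm10. Per the deposited readme files, the mm9 list derives from the alignments of both replicates, and the mm10 lists comprise relaxed lists of each replicate and of both, and conservative and optimal lists thresholded for reproducibility. For the caller, aligner and thresholds, the entry is the same throughout: not given in the sources used here. Column 7 of each list is the authors' signal value, on a scale that is not stated. Column 9 of the deposited mm9 list holds −log10 q values by the format. Column 9 of the deposited mm10 lists holds a score that falls below 0 and was not used. No file gives read counts, so the depth of each sample is unknown, and intervals cover counting error among peaks only.

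Summits (start plus column 10) of the mm9 list were joined to Gencode vM1 transcripts and the NCBIM37 sequence. E-boxes were sought within 50 bp of the summit on both strands. For mm10, 5′ ends came from RefSeq genes of GRCm38.p6, and coordinates were not converted. Shares were compared with two-sided Fisher's exact tests and, within peaks, exact McNemar tests, with Benjamini-Hochberg adjustment. All peaks belong to 1 group, so no conditions were compared. The routines were tested on simulated data.

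The peaks named are the 8 strongest far peaks with CACGTG, the 6 strongest of each other class, the 5 farthest and the 3 on each side of the limit; the genes named are those nearest to or hosting them, those with 4 or more far peaks, and members of 5 gene lists that are nearest to or host one; 1 gene that meets this rule is not reported here. Other named items, which include the transcripts at non-coding 5′ ends, the CpG-rich peaks and the sequence families, were chosen after their values were seen. The members and lists were chosen with earlier results of these data known. Alternatives covered the distance limit, the annotation, the window, the signal range, thinning to 1 peak per 100 kb and, added after seeing the data, leaving out chromosomes 3, 11 and 16. Python 3.11.15 was used with pandas 2.3.3, numpy 2.4.6, SciPy 1.17.1, statsmodels 0.14.6, networkx 3.6.1, matplotlib 3.10.9 and BLAST 2.17.0+.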

Additional observations from a re-analysis of the deposited data

Results flagged for a closer look

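The relation between E-box and signal differed between far peaks and peaks nearer to genes. Among far peaks 38.4% of CACGTG peaks and 41.8% of CACATG peaks had a signal above the median of the whole list (odds ratio 0.871), against 48.1% and 44.1% at 10 to 100 kb (odds ratio 1.18). The ratio of the odds ratios was 0.741 (95% interval 0.550 to 0.998, logistic interaction term). Within 1 kb the shares were 77.9% and 60.1% (odds ratio 2.35), which gave a ratio of odds ratios of 0.371 (0.260 to 0.530, by the same model). This test of the difference was added after seeing the data. The difference from peaks at 10 to 100 kb has an interval that barely excludes 1, and it did not pass an adjusted p of 0.05 under most of the alternatives given in the next section.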

How the results depend on the processing

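Of 140 alternative values, 112 kept their direction and their side of the threshold, or stayed within the limits set for counts and shares; 12 no longer passed, 1 passed only then, 8 reversed and 7 moved. The share of far peaks was 19.4% over 50 kb, 3.36% over 200 kb and 4.92% with the 5′ ends of all transcripts, by construction of these limits. Among peaks above the median signal, with the distance rule unchanged, it was 7.30%. All reversals concern differences of far peaks from peaks at 10 to 100 kb that never passed: CACATG -0.41 percentage points (over 200 kb) and -1.77 (all transcripts), neither core 1.97 (over 200 kb), 0.415 (all transcripts) and 0.0107 (peaks above the median signal), and CACGTG 1.35 (all transcripts), 0.595 (25 bp windows) and 0.0146 (without the strongest 1%). CACGTG against peaks within 1 kb differed by -2.98 (all transcripts) and -3.54 (without the strongest 1%), neither of which passed. The signal difference from 10 to 100 kb was -4.41 without chromosomes 3, 11 and 16 and did not pass. The interaction with 10 to 100 kb did not pass with ratios of 0.708 (over 200 kb), 0.680 (all transcripts), 0.779 (100 bp windows), 0.860 (1 peak per 100 kb), 0.845 (without the 3 chromosomes) and 0.722 (signal in the highest 20% in place of above the median). TCACGTGA against 10 to 100 kb differed by 5.76 (over 200 kb) and 4.81 (1 peak per 100 kb), and the difference by CACATG copies was 10.1 (1 peak per 100 kb), none passing. The 5′ ends of genes not annotated as protein-coding, taken within 5 kb, gave -1.96 and passed (Fisher's exact test, adjusted p = 0.0427). Among peaks above the median signal 44 hexamers were more and 55 less frequent. Far regions found in each replicate came to 98.6% at 50% overlap and 100% for the conservative list, and the far share was 9.78% to 10.4% when either replicate was left out. The cause was not tested. Samples could not be paired between conditions because there is 1 group only. Unknown depth limits all statements about weak peaks.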
